A study of Mus musculus with 20 samples.

Results

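The response of resting mouse plantaris muscle to a miR-1 mimic was examined in 10 of the 20 RNA-seq libraries of the series, namely the 5 sham control and the 5 sham mimic libraries. They were chosen by their labels. The muscles came from male C57BL/6J mice aged 5 months, 10 days after a sham operation in which the synergist muscles were left in place. During surgery, 50 µL of lentivirus had been given to each plantaris in 2 injections, control virus on the left and virus expressing the mimic of miR-1a-3p on the right. Both viruses carried a CMV promoter and TurboGFP, so the sham control muscles were injected and infected too. By the study's methods the sham operation was done on both limbs of 5 mice, so the 5 muscles of a group came from separate mice and both groups from the same mice, and because the virus was set by the limb, side and virus cannot be told apart. The other 10 libraries, from muscles under mechanical overload (MOV), are used where the sham values are set beside them and in 1 alternative fit over all 20 libraries.

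MicroRNAs guide the silencing complex to matching sites, mostly in the 3′ UTR of an mRNA, where pairing with bases 2 to 8 of the microRNA, the seed, is enough to lower the mRNA or its translation. miR-1 is among the most abundant microRNAs of striated muscle, and miR-206, which is made in skeletal muscle alone among adult tissues, has the same seed. A rise in miR-1 is therefore looked for first as lower levels of mRNAs with a seed match, and resting muscle already holds much of the same microRNA. The mature miR-206-3p is shown because it carries the seed shared with miR-1 (RefSeq, GRCm38.p6, chr1:20679055-20679076, plus strand, seed in capitals).
mmu-miR-206-3p: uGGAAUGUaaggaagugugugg
The site that pairs with this seed reads ACATTCC in the mRNA. The known targets of miR-1 or miR-206 with the highest levels in these libraries and such a site in the longest annotated 3′ UTR are given with their surroundings, so that the match can be set beside their values (NCBIM37 annotation, the site in capitals). They were picked by level after the values were seen.
Fn1 (fibronectin, chr1:71632094-71632113, minus strand): aaaaagatttACATTCCatg
Hspd1 (the mitochondrial chaperonin Hsp60, chr1:55134885-55134911, minus strand): agacatttgtACATTCCtgatgctggg
Anxa5 (annexin A5, chr3:36347847-36347873, minus strand): acaaataaaaACATTCCcttccctcca
Igf1 (insulin-like growth factor 1, chr10:87393624-87393650, plus strand): atacaagtaaACATTCCaacatcgtct
Kcnj2 (an inward rectifier potassium channel, chr11:110935527-110935553, plus strand): ctctcttagcACATTCCaaagttggtt
Cnn3 (calponin 3, chr3:121160466-121160492, plus strand): tgccttatgtACATTCCtttctccttt

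Between 16083171 and 18226819 reads were counted per sham control library and between 16377561 and 23056525 per sham mimic library (exact permutation test of the totals, two-sided, p = 0.190). The 20 fast-fibre genes took between 18.8% and 24.2% of all counts, and the fast myosin gene Myh4 had 33112 ± 12823 CPM in control and 30629 ± 12023 CPM in mimic (SD, n = 5 each). CPM is counts per 1000000 after TMM normalization. One mimic library stood apart. In sham mimic replicate 5 the mitochondrial ribosomal RNAs mt-Rnr1 and mt-Rnr2 had 16.6 and 55.4 CPM, whereas the other 9 libraries had at least 946 and 1358 CPM, and ENSMUSG00000106106, for which no symbol was found, had 210 CPM against at least 5293. Without this library, 0 genes were called and 212 had an unadjusted p under 0.05, and its effect on the gene classes that the results turn on is given with them. Among the other lists, leaving it out moved the median log2FC from 0.03 to 0.05 for the miR-1 targets and from -0.13 to -0.24 for slow-fibre genes. The median moved from -0.19 to -0.21 for macrophage markers and from 0.12 to 0.16 for endothelial markers. Larger moves were those of neutrophil markers (-0.55 to -1.53), interferon-stimulated genes (0.09 to -0.42), MHC genes (0.15 to -0.12) and lymphocyte markers (0.02 to 0.29).

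The libraries do not hold mature miR-1, so the amount of mimic in each muscle could not be read from the counts. By qPCR, the paper saw no rise of miR-1 in sham muscle given the mimic virus. The comparison is thus one of viruses, and a raised level of miR-1 was not shown for these muscles. Reads on the precursor gene Mir1a-1 numbered 8, 30, 38, 22 and 15 in sham control replicates 1 to 5 and 7, 54, 6, 12 and 39 in sham mimic. The mimic libraries lay on both sides of the control libraries. The log2 fold change (log2FC) of mimic against control was 0.02 with a standard error of 0.63, and its sign turned in 11 of 24 other fits. Mir1b, annotated on the opposite strand of the other miR-1a locus and with another seed, had 2.23 ± 0.412 CPM in control and 1.60 ± 1.06 CPM in mimic, a log2FC of -0.47 (standard error 0.43), and reads of the strands of that locus cannot be told apart.

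No gene was a differentially expressed gene (DEG) between sham mimic and sham control. Of 14746 genes tested with edgeR, 0 had an adjusted p under 0.05 (0%), and the smallest adjusted p was 1.00. Counting the alternatives, 25 fits were made, DESeq2 and limma voom included, and 0 genes were called in each. In the edgeR test 254 genes reached an unadjusted p under 0.05 (1.72%), 83 higher (0.563%) and 171 lower (1.16%) in mimic. A uniform spread of p would give 5%. DESeq2 gave 283 genes (1.92%) at that level and limma voom 556. Leaving out single libraries moved this count between 150 and 348, the lowest being without sham control replicate 2.

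Beyond the count, the interval of each log2FC says how large a change the libraries could still hold. The 95% interval lay within 1 of 0 on the log2 scale, a doubling or halving, for 11388 genes (77.2%), and within 0.5 of 0 for 6126 genes (41.5%). The width went with the level. Among the 6967 genes with a mean between 10 and 100 CPM, 95.7% of intervals lay within 1 and 68.1% within 0.5, and among the 1265 genes over 100 CPM the shares were 95.3% and 68.9%. Among the 1149 genes under 1 CPM they were 6.79% and 0, so that a doubling lay outside the interval of few of them. Over all genes the median size of the log2FC was 0.11 and the median standard error 0.20. Only 74 genes had a log2FC beyond 1 in either direction, of which 72 had a mean under 10 CPM.

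**Figure D1:**
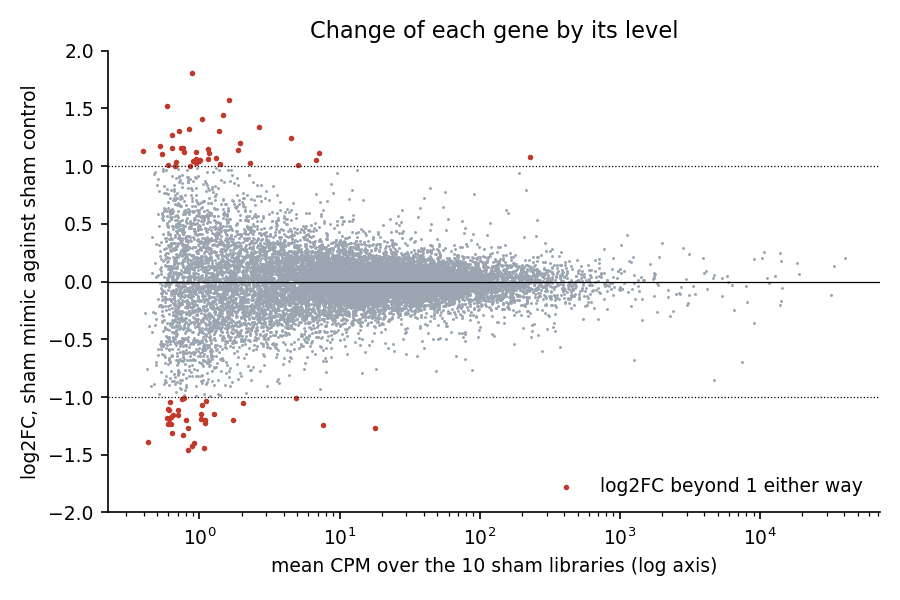
Log2FC of sham mimic against sham control (y axis) for each of 14746 genes by its mean CPM over the 10 sham libraries (x axis, log scale), with dotted lines at 1 and -1. The 74 genes beyond these lines, in red, lie almost all on the left, under 10 CPM.

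Paired by equal replicate number, there were 0 DEGs as well. With the number as a block, edgeR gave 442 genes at an unadjusted p under 0.05 (3%), 148 higher (1%) and 294 lower (1.99%), and DESeq2 gave 330 (2.24%) with a smallest adjusted p of 0.164. A gene moved the same way in 5 of 5 pairs in 862 cases (5.85%), 359 higher (2.43%) and 503 lower (3.41%). The libraries of the 2 groups did not overlap for 51 genes (0.346%), 20 higher (0.136%) and 31 lower (0.21%). Libraries of equal number had a mean root mean square log2 difference across genes of 0.580 (range 0.479 to 0.674 over 5 pairs) against 0.726 for unequal numbers (range 0.507 to 1.01 over 20 combinations). Number 1 carried much of this gap, since each unequal combination with a library of number 1 lay between 0.723 and 1.01 and the others between 0.507 and 0.783. Control replicates 2, 3 and 5 lay closer to mimic replicate 4 (0.527, 0.507 and 0.588) than to their own number (0.636, 0.556 and 0.674). Fibronectin was one gene whose level went with the number. Fn1 had 77.3, 399.7, 1159, 917 and 569 CPM in sham control replicates 1 to 5 and 124.8, 474, 1263, 851 and 844 CPM in sham mimic. The low and the high libraries bore the same numbers in both groups, and each difference within a number was smaller than the range within a group. Neither the labels nor the methods state that equal numbers mark the same mouse.

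**Figure D2:**
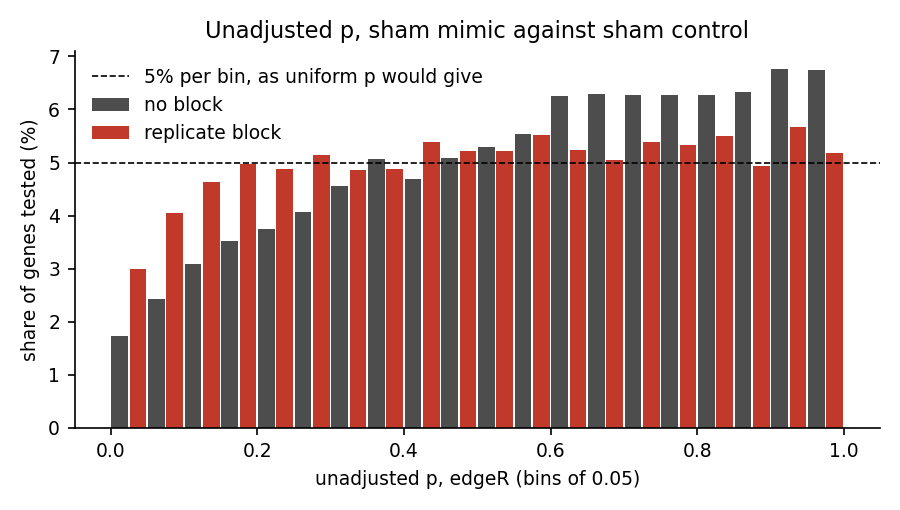
Share of the genes tested (y axis, %) by unadjusted p in bins of 0.05 (x axis) for edgeR without a block (grey) and with the replicate block (red), with a dashed line at the 5% per bin that uniform p would give. The lowest bin holds 1.72% without and 3% with the block, and both lie under the line.

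The genes nearest to a difference in both readings were mostly of low level. Among genes with the same direction in 5 of 5 pairs, the 6 with the smallest unadjusted p in each direction were taken. Their adjusted p was 1.00 from edgeR in each case. Kcnk2, a potassium channel gene (GRCm38.p6, chr1:189207930-189402782), had 1.72, 1.55, 1.203, 1.64 and 1.43 CPM in sham control and 2.73, 2.72, 3.82, 2.45 and 3.71 CPM in sham mimic. Every mimic library lay above every control library, with a log2FC of 1.03 (standard error 0.24, unadjusted p = 0.000963 from edgeR). The cone opsin gene Opn1mw (log2FC 1.40), C2cd4c (1.06), Krtcap3 (0.74), ENSMUSG00000101841 (0.55) and the mitochondrial proline tRNA gene mt-Tp (0.51) were the other 5 on the higher side. Opn1mw and mt-Tp overlapped between the groups.

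On the lower side, Gnptg, which encodes a subunit of the enzyme that tags lysosomal hydrolases (chr17:25232224-25240328), had 12.9, 12.9, 14.3, 11.99 and 13.5 CPM in control and 10.2, 8.15, 9.58, 10.2 and 9.21 CPM in mimic. The groups were apart, with a log2FC of -0.47 (standard error 0.12, unadjusted p = 0.00177 from edgeR). Tomm7, a small subunit of the import channel in the outer mitochondrial membrane (chr5:23838944-23844145), had 28.8, 28.8, 23.1, 17.5 and 16.6 CPM in control and 13.8, 12.3, 18.7, 11.1 and 11.9 CPM in mimic. Its groups overlapped through mimic replicate 3, and its log2FC was -0.76 (standard error 0.20). The others were Atoh7 (log2FC -1.46), a transcription factor gene known from the retina, ENSMUSG00000097640 (-1.40), the noncoding snoRNA host Snhg20 (-0.57) and Ccs (-0.50), the copper chaperone of superoxide dismutase.

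Known targets of miR-1 were not lower as a group than all genes tested, but their transcripts were longer (median 4107 against 3055 bases). Genes over 4000 bases had a median log2FC of 0.05, slightly above the 0.03 of the targets. Of the 32 genes in the list, 27 were tested, 10 were lower and 17 higher in mimic, 0 had an unadjusted p under 0.05, where 1.72% of all genes did, and their median log2FC was 0.03 against 0.00111 over all genes tested. Without sham control replicate 1 the median was -0.01, without sham mimic replicate 2 it was -0.02, and without sham control replicate 4 it was 0.12. Without each of the other libraries but mimic replicate 4 it was between 0.05 and 0.06. The member with the smallest unadjusted p was Notch3 (log2FC 0.28, standard error 0.21), a receptor of vascular smooth muscle, followed by Calm2 (log2FC -0.16, standard error 0.12), a calmodulin gene. With libraries left out, Notch3 lay between 0.016 and 0.44 and Calm2 between -0.26 and -0.07. Of the 6 targets whose sites are printed above, 3 were higher and 3 lower. The log2FC was 0.19 for Fn1 (standard error 0.64), 0.24 for Igf1 (0.46) and 0.17 for Cnn3 (0.36), and -0.11 for Hspd1 (0.15), -0.07 for Anxa5 (0.33) and -0.15 for Kcnj2 (0.19). Without a block, each of these differences was under 1 standard error. With the block Fn1 had a log2FC of 0.30 (unadjusted p = 0.0419 from edgeR). It was the 1 target at an unadjusted p under 0.05, a level that 3% of all genes reached with the block.

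The site itself was followed over all genes with an annotated 3′ UTR. It was present in 10.9% of them, and 17 of the 26 listed targets with a UTR had it. The 17 had a median log2FC of 0.06, with 6 lower, and the 9 without it 0.02, with 4 lower. Over the whole table, 1404 genes with a site had a median log2FC of 0.03 and 11469 genes without one -0.00043. The genes with a site were longer (median transcript 4360 against 3053 bases), and among transcripts over 4000 bases the medians were 0.05 with and 0.05 without a site (816 and 3578 genes). Between 2000 and 4000 bases they were 0.002 and -0.004, and under 2000 bases -0.06 and -0.08. In none of these length classes did genes with a site lie below those without by more than 0.01.

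The log2FC of sham mimic against sham control followed transcript length. Transcript length here is that of the longest annotated transcript and was known for 13787 of the genes tested. The median log2FC was -0.13 under 200 bases (38 genes), -0.16 from 200 to 500, -0.13 from 500 to 1000 (855 genes), -0.06 from 1000 to 2000 (2632 genes), -0.00285 from 2000 to 4000 (5617 genes) and 0.05 over 4000 bases (4439 genes). The share at an unadjusted p under 0.05 was 15.8%, 6.80%, 6.78%, 1.94%, 1.10% and 0.856% in the same order, beside 1.72% over all genes. Under 1000 bases, 787 of 1099 genes were lower in mimic, 71 of them and 7 of the higher genes at an unadjusted p under 0.05. That count of 71 was 43 without sham control replicate 1, 24 without sham control replicate 2, 43 without sham mimic replicate 2 and 34 without sham mimic replicate 4, and 56 without sham mimic replicate 5. It was 86 without sham control replicate 5, 109 with the replicate number as a block in edgeR and 126 with limma voom. The direction in the length classes under 2000 and over 4000 bases was the same with each of the 10 libraries left out.

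**Figure D3:**
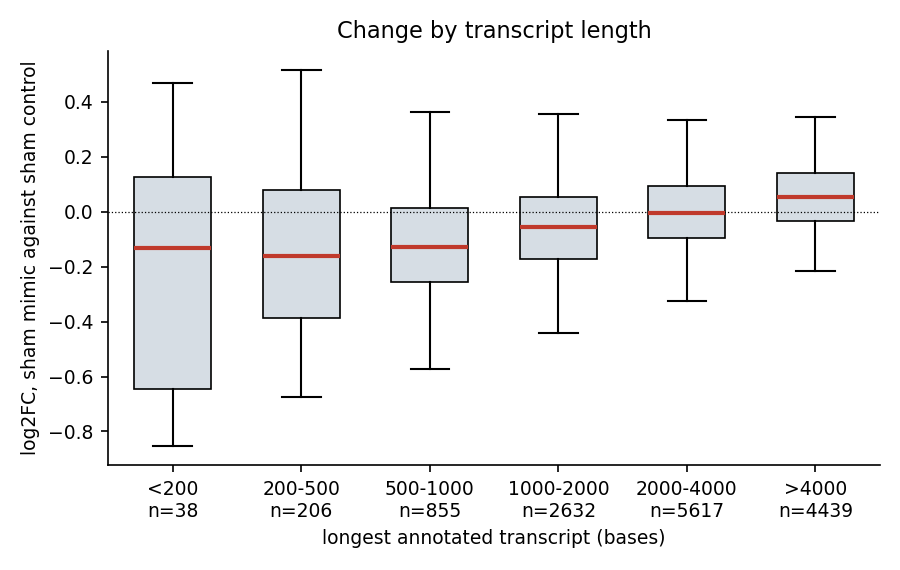
Log2FC of sham mimic against sham control (y axis) by length of the longest annotated transcript in bases (x axis, with the number of genes). Red lines are medians, boxes the quartiles and whiskers the 5th and 95th percentiles, and the medians go from -0.16 at 200 to 500 bases to 0.05 over 4000 bases while the boxes of all classes overlap.

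The shift was also followed library by library. For each library, the mean log2 deviation of 471 short genes (under 1000 bases) less that of 2984 long genes (over 4000 bases), all of at least 10 CPM, was taken. It was 0.213, 0.308, 0.0197, -0.115 and 0.0981 in sham control replicates 1 to 5, and -0.0469, -0.197, 0.0785, -0.220 and -0.139 in sham mimic. The groups overlapped, since control replicate 4 lay among the mimic libraries and mimic replicate 3 among the controls. The means were 0.10 ± 0.16 and -0.10 ± 0.12 (SD, n = 5 each), a difference of -0.21 that exceeded the SD within either group, and 4 of 5 pairs had the lower value in mimic. Without both libraries of number 2 the difference was -0.14.

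The median log2FC also went down with GC content. Over all transcripts of at least 10 CPM it was 0.03, 0.01, -0.01 and -0.02 from the lowest to the highest quartile, and from 1000 to 4000 bases 0.01, -0.01, -0.04 and -0.04. Among transcripts under 1000 bases of at least 10 CPM, it went from -0.09 in the lowest to -0.19 in the highest quartile of GC content (50 and 153 genes). In transcripts over 4000 bases it was 0.05 and 0.06 and showed no such order. The pairs did not share this trend. From the lowest to the highest quartile over all lengths, the median difference went from 0.18 to -0.21 in pair 3 and from 0.10 to -0.11 in pair 4, but from -0.03 to 0.07 in pair 2 and from -0.13 to 0.12 in pair 5, and it was 0.02 in both quartiles of pair 1. Among the pairs, long transcripts of the highest GC quartile had median differences of 0.09, 0.31, -0.35, -0.10 and 0.40 for numbers 1 to 5, so that pairs 3 and 4 went against pairs 2 and 5.

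The respiratory chain genes of the nucleus lay lowest among the large classes. These encode most subunits of the complexes that pass electrons to oxygen and make ATP, and their transcripts are short (median 943.5 bases against 3055 over all genes). Of 84 tested, 81 were lower in mimic, with a median log2FC of -0.16, and 13 had an unadjusted p under 0.05, all lower, where 1.16% of all genes were lower at that level. None passed the adjusted threshold. Ndufs6, a complex I subunit, had 113, 106, 79.2, 66.4 and 82.9 CPM in control and 73.8, 57.9, 68.0, 61.1 and 58.9 CPM in mimic. Mimic replicates 2, 4 and 5 lay below every control library and the other 2 within the control range, and the log2FC was -0.48 (standard error 0.15). Ndufa2, also of complex I, had 141 ± 25.9 CPM in control and 102 ± 13.7 CPM in mimic (SD, n = 5 each, log2FC -0.46, standard error 0.15) and was lower in 5 of 5 pairs. The other 11 members at that level, named after their values were seen, were Ndufa1, Ndufb3, Ndufv3 and Ndufa4l2 of complex I or related to it, Uqcr10 and Uqcr11 of complex III, Cox5b, Cox7a1 and Cox8b of complex IV and Atp5k and Atp5mpl of ATP synthase. Their log2FC lay between -0.35 for Atp5mpl and -0.64 for Atp5k. By contrast, Atp5b, the catalytic ATP synthase subunit and the member with the highest level, had 2719 ± 610 and 2532 ± 400.1 CPM (log2FC -0.10, standard error 0.18).

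The class level, the mean log2 CPM of the 84 genes, was 7.95, 7.86, 7.40, 7.28 and 7.54 in sham control and 7.65, 7.38, 7.47, 7.27 and 7.37 in sham mimic. Control replicates 1 and 2 were the high libraries, and the rest of the controls lay within the range of the mimic libraries. The number of members lower in mimic was 59 without control replicate 1 and 70 without control replicate 2. The median log2FC was then -0.06 and -0.09, with 4 and 3 members at an unadjusted p under 0.05. This last count was 22 without control replicate 4, 6 without mimic replicate 2, 4 without mimic replicate 4 and 8 without mimic replicate 5, where 74 members were lower and the median was -0.13.

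**Figure D4:**
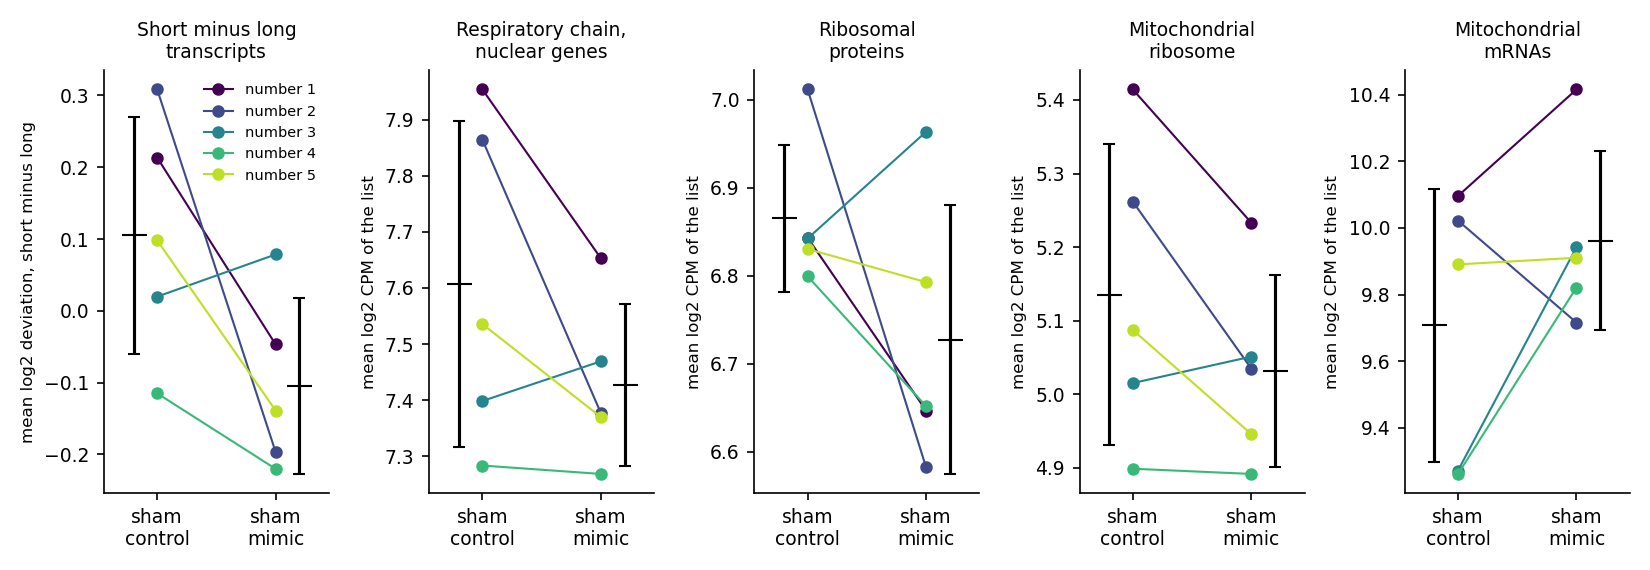
From left to right, the mean log2 deviation of short less long transcripts, and the mean log2 CPM of the nuclear respiratory chain, ribosomal protein, mitochondrial ribosome and mitochondrial mRNA lists (y axes) in the 5 sham control and 5 sham mimic libraries, joined by replicate number, with means and SD as bars. Number 3 goes against the other numbers in the first 4 panels, and the groups overlap in each.

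Ribosomal protein genes, which build the cytosolic ribosome, were lower in 71 of 85 cases, with a median log2FC of -0.10 and 8 members at an unadjusted p under 0.05, all lower (9.41%, against 1.16% of all genes lower at that level). Rps28 had 46.4, 59.6, 55.1, 46.8 and 39.9 CPM in control and 33.4, 29.9, 45.3, 32.7 and 40.6 CPM in mimic. Most mimic libraries were low, but replicates 3 and 5 reached into the control range, and the log2FC was -0.45 (standard error 0.14). Rpl21 had the largest difference of the list, with 61.9 ± 21.8 CPM in control and 36.2 ± 4.85 CPM in mimic (log2FC -0.77, standard error 0.22). The 2 members with the highest levels, Rplp0 and Rpl4, had a log2FC of -0.06 (standard error 0.11) and -0.03 (0.13), and Rpl4 turned its sign when single libraries were left out. Many of these genes have near-identical processed copies in the genome, and how reads with several alignments were counted is not given in the sources used here, so that single members are uncertain. The count of 8 was 2 without sham control replicate 2, 3 without sham mimic replicate 1, 2 or 4 and 17 without sham mimic replicate 3. The median was -0.04 without control replicate 2 and -0.05 without mimic replicate 2. Without mimic replicate 5, 67 members were lower, 8 of them at that level, with a median of -0.09.

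Genes of the mitochondrial ribosome, which translates the mRNAs of the mitochondrial genome, were lower in 65 of 76 cases (median log2FC -0.12). Mrpl20 had a log2FC of -0.34 (standard error 0.14) and Mrpl41 of -0.32 (standard error 0.14), the 2 members at an unadjusted p under 0.05 (2.63%, against 1.72% of all genes). The median was -0.03 without control replicate 1, -0.08 without control replicate 2 and -0.07 without mimic replicate 4, and without mimic replicate 5 it was -0.08 with 57 members lower. The count of 2 was 0 without control replicate 2 or mimic replicate 4, 4 without mimic replicate 3 and 6 without control replicate 4. It was 1 without control replicate 1, control replicate 3, mimic replicate 2 or mimic replicate 5.

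The mRNAs of the mitochondrial genome itself stood on the other side. They encode the remaining respiratory chain subunits and are transcribed inside the organelle. Of 13, 12 were higher in mimic, with a median log2FC of 0.21, and 0 had an unadjusted p under 0.05, where 1.72% of all genes did. With the block it was 3, all higher, where 1% of all genes were higher at that level. That count was 1 without number 1, 3 or 4 and 6 without number 2. mt-Co1, a core subunit of complex IV, had 37323 ± 10557 CPM in control and 43131 ± 8445 CPM in mimic (SD, n = 5 each, log2FC 0.21, standard error 0.25). mt-Cytb had a log2FC of 0.16 (standard error 0.23) and mt-Nd3 of 0.29 (standard error 0.16). Together these genes took 11.5%, 11.01%, 7.61%, 7.97% and 11.05% of the counts in sham control and 12.99%, 10.3%, 12.6%, 10.6% and 10.2% in sham mimic. Control replicates 3 and 4 were the low libraries and lay under every mimic library. The median log2FC was 0.08 without mimic replicate 1, 0.11 without control replicate 3, 0.34 without control replicate 1 and 0.26 without mimic replicate 5. Their median length was 784 bases, so that they went against the length trend of the other short transcripts.

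Set against other genes of the same length, the respiratory chain genes had the lower medians. Under 500 bases the median log2FC was -0.23 for 9 ribosomal protein genes, -0.42 for 6 respiratory chain genes and -0.17 for the 210 genes outside the 3 nuclear classes. From 500 to 1000 bases the median log2FC was -0.11 for 40 ribosomal protein genes and -0.12 for the 747 genes outside these classes, while it was -0.17 for 21 mitochondrial ribosome genes and -0.20 for 41 respiratory chain genes. From 1000 to 2000 bases it was -0.07, -0.08 and -0.13 for these classes in the same order, against -0.06 for the rest, and from 2000 to 4000 bases -0.08, -0.08 and -0.09 against -0.00285 over all genes of that length. Ribosomal protein genes lay within 0.02 of the other genes from 500 to 2000 bases and below them under 500 and from 2000 to 4000 bases, and respiratory chain genes lay below the other genes in each of these classes. These are descriptions of classes whose members share libraries, and no test was applied.

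The shortest annotated genes were hardly measured. Of 103 small nucleolar RNA genes 3 were tested, and of 481 spliceosomal, microRNA and other small RNA genes 5. Among these 5, all microRNA precursor genes, 4 were lower in mimic. Mir133a-2, which lies beside Mir1a-1 and gives rise to miR-133a (chr2:180398379-180398482), had 6.96, 15.1, 9.32, 10.3 and 5.24 CPM in control and 5.04, 8.96, 4.52, 3.67 and 6.99 CPM in mimic. The log2FC was -0.69 (standard error 0.31), and the groups overlapped. Mir133a-1 had 4.83 ± 1.73 CPM in control and 2.62 ± 0.720 CPM in mimic, and was lower in 5 of 5 pairs (log2FC -0.88, standard error 0.28, unadjusted p = 0.00861 from edgeR). Mir206 had between 0 and 4 counts per library and was not tested.

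Fibre-type and glycolytic genes were mostly lower in mimic. Of 20 fast-fibre genes 14 were lower (median log2FC -0.04) and of 10 slow-fibre genes 9 (median -0.13), where only 3 of the 10 intervals lay within 1 of 0 against 19 of the 20, and Myl2, a slow myosin light chain, was the 1 gene of both lists at an unadjusted p under 0.05, a level that 1.72% of all genes reached, with 230 ± 66.8 CPM in control and 174 ± 11.3 CPM in mimic (log2FC -0.40, standard error 0.18, but -0.25 without control replicate 2). The slow myosin light chain Myl3 (log2FC -0.77, standard error 0.39) and the fast-fibre calcium buffer Pvalb (-0.36, standard error 0.22) were both lower in 4 of 5 pairs. The 11 glycolytic genes were all lower with edgeR without a block, with a median of -0.08, and 10 were lower with the block. Without control replicate 1, 6 of 11 were lower and the median was -0.00188. It was -0.02 without control replicate 2, -0.03 without mimic replicate 2 or 5, -0.15 without control replicate 3 and -0.20 without mimic replicate 1. With the block and without number 2, 5 of 11 were lower and the median was 0.02. With single libraries left out the slow-fibre median lay between -0.57 and 0.19 and was above 0 without control replicate 2, control replicate 3 or mimic replicate 1, and the fast-fibre median was 0.09 without control replicate 1, -0.13 without control replicate 3, -0.11 without control replicate 4 and -0.20 without mimic replicate 1. The 14 atrophy genes had a median of -0.03, with 7 higher and 7 lower, and the 19 genes of microRNA processing and silencing 0.07. With single libraries left out these medians lay between -0.06 and 0.02 and between 0.045 and 0.085.

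Markers of other cell types were followed to see whether the cell content of the muscles differed. In bulk muscle, fewer cells of a type and less RNA per cell cannot be told apart. Of the adipocyte markers 10 of 11 were tested, of the lymphocyte markers 9 of 15 and of the neutrophil markers 4 of 8. None of the marker genes of the adipocyte, macrophage and leukocyte, lymphocyte, neutrophil, endothelial, smooth muscle, fibro-adipogenic, tendon, satellite, Schwann or erythroid lists had an unadjusted p under 0.05, where 1.72% of all genes did. With the block, where it was 3% of all genes, 2 macrophage markers, 1 fibro-adipogenic marker and 2 of the 3 erythroid markers did, all lower in mimic. The erythroid level (mean log2 CPM of 3 genes of hemoglobin and heme synthesis) was 3.79, 3.57, 2.14, 2.87 and 3.15 in control and 3.27, 2.98, 1.95, 2.67 and 2.76 in mimic. It was lower in 5 of 5 pairs while the groups overlapped, and the median log2FC was -0.36. This median was -0.22 without control replicate 1, -0.21 without control replicate 2, -0.20 without mimic replicate 3 and -0.55 without control replicate 3. The macrophage and leukocyte markers were lower in 16 of 19 cases (median log2FC -0.19), with mean levels between 3.08 and 5.16 in control and between 3.21 and 4.98 in mimic (mean log2 CPM). The macrophage median was -0.02 without control replicate 4 or mimic replicate 1, and -0.12 without control replicate 3 or mimic replicate 2. It was -0.41 without control replicate 1, -0.33 without mimic replicate 3 and -0.29 without mimic replicate 4. Endothelial markers were higher in 11 of 12 cases (median 0.12, or 0.08 and 0.07 without mimic replicate 1 or 2 and 0.18 without mimic replicate 3 or 4), with levels between 4.99 and 5.20 in control and between 5.09 and 5.44 in mimic. Collagen and matrix genes had a median of 0.10, which was -0.15 without control replicate 1, -0.07 without mimic replicate 3 and -0.00691 without mimic replicate 5. It was 0.38 without control replicate 3, 0.25 without control replicate 4 and 0.31 without mimic replicate 1. The collagen and matrix level ran from 5.44 to 8.64 among the control libraries and from 5.89 to 8.38 among the mimic libraries. The lowest level belonged to number 1 in both groups. The lists also differed in length. Median transcripts had 699 bases for the erythroid, 1572 for the macrophage, 3779 for the endothelial and 5455.5 for the collagen list, against 3055 over all genes. Lymphocyte and tendon markers, at 1323 and 2772.5 bases, had a median log2FC of 0.02 and 0.16. The part of length in the marker shifts, and that of cell content in the shifts of the other classes, was not tested.

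The values of sham muscle lay closer to 0 than those of MOV muscle. Over the genes tested in sham, the median size of the log2FC was 0.11 in sham and 0.18 in MOV, with median standard errors of 0.20 and 0.25, so that the standard errors were larger in MOV too. The MOV comparison itself had 641 of 15220 genes at an unadjusted p under 0.05 (4.21%) and 0 at an adjusted p under 0.05 by edgeR (0%). Several immune lists had medians further from 0 in MOV than in sham. The median log2FC of 9 lymphocyte markers was 0.02 in sham and 1.52 in MOV. The sham value had no settled sign, since it was 0.67 without control replicate 3 and -0.55 without mimic replicate 3. These 9 genes lay near the floor, with a median level of 0.90 CPM in sham. Their median standard error there was 0.78, and 0 of the 9 intervals lay within 1 of 0. The median log2FC of 21 MHC genes, which present antigen, was 0.15 in sham and 1.16 in MOV, and that of 30 interferon-stimulated genes 0.09 and 0.87. In sham the MHC and interferon medians were -0.12 and -0.42 without mimic replicate 5, and 0.31 without control replicate 3 and 0.34 without control replicate 5. B2m, the shared light chain of MHC class I, had a log2FC of 0.26 (standard error 0.30) in sham and 0.94 in MOV. The sham value of B2m lay between 0.07 and 0.47 with libraries left out. Whether the effect of the virus differed between surgeries was tested with an interaction term over all 20 libraries. With edgeR, 0 of 16166 genes had an adjusted p under 0.05 (0%) and 426 an unadjusted p under 0.05 (2.64%), 7 of the 21 MHC genes among them and 0 of the interferon-stimulated genes. Of the large classes described above, the medians in MOV were -0.07 for the respiratory chain, -0.03 for ribosomal proteins and -0.09 for the mitochondrial ribosome, and mitochondrial mRNAs were higher in MOV as well (0.38). For short transcripts from 500 to 1000 bases the MOV median was -0.04, against -0.13 in sham. Across 14435 genes the log2FC in sham and in MOV, which share no library, had a Pearson correlation of 0.04 and a Spearman correlation of 0.05. Both surgeries had the control virus on the left limb.

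**Figure D5:**
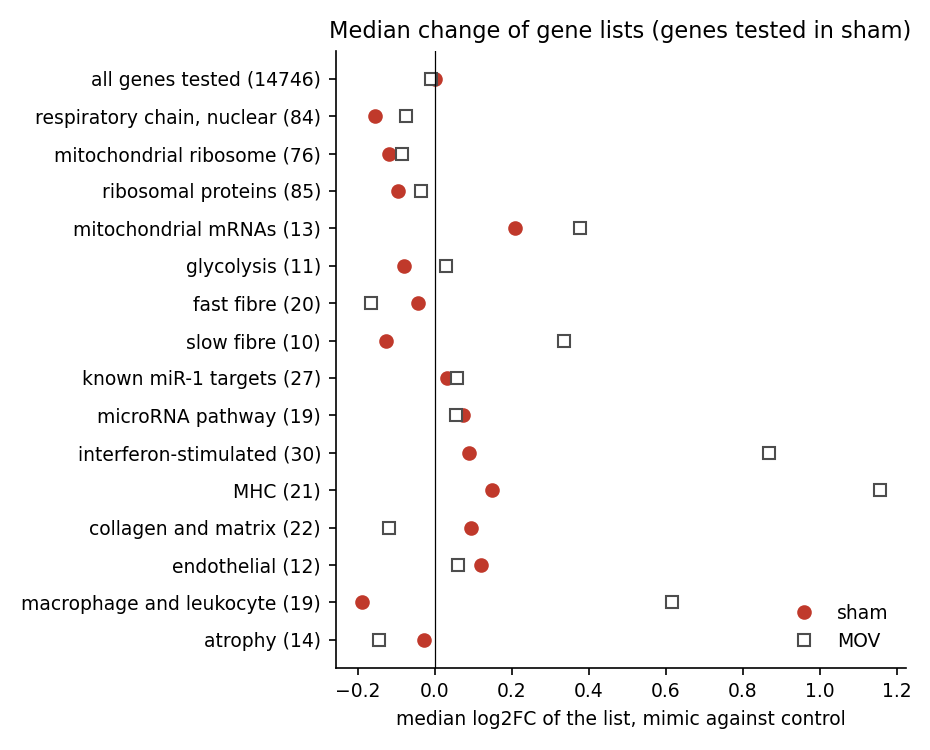
Median log2FC of mimic against control (x axis) for all genes and a choice of 15 gene lists, with the small RNA and most marker lists left out (y axis, with the number of genes tested in sham) in sham (red circles) and MOV (open squares). The sham medians shown lie between -0.19 and 0.21, while the MHC and interferon-stimulated lists reach 1.16 and 0.87 in MOV.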

How the data were processed

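RNA-seq libraries of whole plantaris muscle, prepared with the NEBNext Ultra II RNA kit, were compared as 5 sham control against 5 sham mimic, with the 10 MOV libraries beside them. Unnormalized counts by Ensembl gene identifier were deposited by the authors in 2 tables. Per the submitters' notes and the paper's methods, Trim Galore 0.6.10 with cutadapt 4.4 served for trimming, HISAT2 2.0.5 for alignment to GRCm38 and featureCounts 1.5.0-p3 for counting. The annotation release, strand setting and multi-mapping are not given in the sources used here, so overlapping and antisense genes cannot be told apart.

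The tables were joined by gene identifier (54532 genes, 28287 with a count in sham, 32640 with a symbol and length). For the comparison, edgeR 4.0.16 (TMM, filterByExpr) was used with its quasi-likelihood F-test, without a block, and p-values were Benjamini-Hochberg adjusted over all genes tested. Alternatives were DESeq2 1.42.0, limma 3.58.1 with voom, other scalings and filters, the replicate number as a block, all 20 libraries and each library left out. The fits were tested on simulated data. Class levels were mean log2 CPM (prior count 2). Length and 3′ UTRs were taken from GENCODE vM1 by identifier, gene coordinates from RefSeq. Lists got counts and medians only. The members and lists were chosen with earlier results of these data known. Genes were named by rule, as the 6 in each direction with the smallest p among those of one direction in 5 of 5 pairs, up to 2 per list by p and 2 by level, any called gene, and the miR-1 and miR-206 genes. Total counts were between 16083171 and 23056525 per sham library, and standard errors hold the spread between muscles besides counting error. Within each sham group, all 10 pairs of libraries differed in their counts beyond sampling noise. Per the paper's methods, 5 mice had sham surgery on both limbs, so each group's 5 muscles are separate mice and the groups share them. Which numbers mark one mouse is not stated, so the block was an alternative. Analyses used R 4.3.3 and Python 3.11.15.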

Additional observations from a re-analysis of the deposited data

Results flagged for a closer look

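Among groups of 5 libraries, chance alone sets about 1 in 20 apart by Dixon's ratio, whose critical value is 0.71, and 5 of 142 group levels were beyond it, counting 62 of gene lists and 80 of genes named here. The ribosomal protein level of sham control replicate 2, at 7.01 mean log2 CPM, stood above the other 4 controls at 6.80 to 6.84 (ratio 0.793). The atrophy level of sham control replicate 5 was 5.10 against 4.93 to 4.98 (ratio 0.727). The collagen and matrix level of sham mimic replicate 1 was 5.89 against 7.83 to 8.38 (ratio 0.780), next to 5.44 in sham control replicate 1. The lymphocyte marker level of sham mimic replicate 3 was 1.30 against -0.44 to -0.07 (ratio 0.787), next to 1.17 in sham control replicate 3. Rplp0 in sham mimic replicate 4 had 734 CPM, against 852 to 899 CPM in the other mimic libraries (ratio 0.717).

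The response of the small nucleolar RNA gene Snord91a differed between the surgeries in the interaction test of DESeq2 (adjusted p = 0.000752), the 1 gene called there. It had between 4 and 16 counts in sham control and between 4 and 25 in sham mimic, against 15 to 30 in MOV control and 0 in all 5 MOV mimic libraries. Its sham log2FC was -0.05 with a standard error of 0.51. The edgeR interaction test called 0 genes. The gene lies within a longer gene, so that its counts are uncertain.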

How the results depend on the processing

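No gene was called for sham mimic against sham control under any of the 24 alternatives. The number at an unadjusted p under 0.05, 254 in the main test, was 556 with limma voom and quality weights, 913 without a filter, 517 with at least 10 counts, 111 with all 20 libraries in the fit and 442 with the replicate block. It lay between 150 and 348 with each library left out, the lowest without control replicate 2, and with the block and each number left out between 246 and 746, the latter without number 3. Of these genes 32.7% were higher in the main test, 47.0% with the filter of at least 10 counts, 24.9% with library totals only and 52.1% with the block and without number 3, where 389 were higher and 357 lower. DESeq2 called 3 genes in MOV and 1 gene in the interaction. Without a filter 40.6% of intervals lay within 1 of 0. Most lists had an SD between libraries larger than their median log2FC, so a median could change sign within 1 SD. Neutrophil markers lay between -1.53 and 0.86 with each library left out, and interferon-stimulated genes between -0.42 and 0.34. On that wide scale most class and length medians moved by less than 1 SD. The exceptions were the adipocyte markers, whose median log2FC lay between -0.22 and 0.47 with each library left out, the histone genes, at 0.033 without a filter against -0.10, and the transcripts under 200 bases, at -0.37 in the 7 genes of at least 10 CPM. Equal replicate numbers were checked by the correlation of deviations from the group mean across genes, which was 0.727, -0.00115, 0.179, 0.287 and 0.158 for numbers 1 to 5 (mean -0.06 for unequal numbers). Not every pair was over 0.1, and only control replicates 1 and 5 correlated best with their own number, so the block was kept as an alternative. Of 56 named genes, 44 kept their sign in every fit. Many of them had been chosen for a small p or for the same direction in 5 of 5 pairs, so this count does not measure stability. With limma voom the log2FC was -0.83 for Mir1a-1, 0.044 for Anxa5 and 0.00447 for Snord91a, and with the replicate block Mir1a-1 was at -0.32 in edgeR and -0.35 in DESeq2. With libraries left out, the ranges that crossed 0 were -0.20 to 0.028 for Atp5b, -0.078 to 0.043 for Rpl4, -0.98 to 0.22 for mt-Rnr1, -0.88 to 0.31 for mt-Rnr2, -0.81 to 0.30 for Mir1a-1, -0.11 to 0.55 for Fn1, -0.20 to 0.00778 for Hspd1, -0.28 to 0.11 for Anxa5, -0.00135 to 0.47 for Igf1, -0.045 to 0.40 for Cnn3, -0.34 to 0.13 for Myh4 and -0.47 to 0.36 for Snord91a. The cause of these moves was not tested. The intervals of genes under 1 CPM were the widest.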
